A study of Mus musculus with 2 samples.

Results

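Histone lysine methyltransferases and demethylases are the enzymes that add methyl groups to, and remove them from, lysines of the histone tails and core. The 37 genes described here comprised 20 methyltransferases, 4 core subunits of the H3K4 methyltransferase complexes and 13 demethylases. They were taken by name as rows of both count tables, out of 43629 gene rows, and grouped by the main histone residue of the enzyme. Of the listed symbols 35 matched the GENCODE M21 gene names directly, and 2, Whsc1 and Setd8, matched as earlier names of Nsd2 and Kmt5a. The rule uses gene names only.

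Poly-A RNA was sequenced from mouse embryonic stem (ES) cells, which come from the blastocyst and can form all tissues of the embryo. Both libraries, A and B, came from Drosha knockout cells on the 129/Ola strain background, made by a paired CRISPR/Cas9 approach, left untreated in serum plus LIF and taken at passage 7. Drosha is the nuclease that starts the maturation of most microRNAs. Unedited cells were not analysed here, so the values below describe levels in knockout cells and no effect of the knockout. The sample titles number the cells of A and B as 1 and 2 while both source names carry the number 1, so it was not stated whether they were separate clones or cultures. SDs therefore measure only the spread between these libraries, which may be technical, and p-values set their difference against counting error.

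The libraries held 29264632 (A) and 42322129 (B) counts. Drosha itself had 4865 reads in A and 7023 in B, and counts over a whole gene do not show a deleted part of it. All 9 ES cell markers examined reached 1 CPM (reads per 1000000 of the scaled library) in both libraries, with Pou5f1 at 1399 ± 33.0, Sox2 at 637 ± 8.26 and Nanog at 613 ± 7.73 TPM (reads divided by exon length and scaled to a total of 1000000 in each library; mean ± SD, n = 2). Of 12 feeder fibroblast markers 6 reached 1 CPM and none was at 0. Their summed TPM was 124 in A and 117 in B, against 15462 and 15652 for the ES cell markers. Most of the fibroblast sum came from Vim (72.3 TPM) and Thy1 (38.6), and most of the ES cell sum from Dppa5a (10136). By the test described further on, which called 2.29% of all genes tested, 4 of these fibroblast markers were called higher in A. Each of the 4 had at most 51 reads in a library. Thy1, Fbn1 and Acta2 were slightly higher in B without a call. Of the ES cell markers 2 were called higher in B and 1 higher in A. The part of either marker set in differences between the libraries was not tested.

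Methylation of histone lysines marks genomic regions according to the residue. In textbook terms, H3K4 methylation marks promoters and enhancers, H3K36 and H3K79 methylation lies over transcribed genes, and H3K9, H3K27 and H4K20 methylation is linked to repressed or compacted chromatin. Most of these methyltransferases carry a SET domain, while the demethylases are either flavin-dependent amine oxidases or JmjC dioxygenases. In ES cells, promoters of many developmental genes carry H3K4 and H3K27 methylation together.

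Start regions of 24 of the 37 genes were found in the RefSeq table for GRCm38.p6, as windows of 300 bases from 250 before to 50 after an annotated start, 34 windows in all since 6 genes had several. The 4 stretches below, each the 250 bases before a start on the minus strand and written 5′ to 3′, span most of the range of CG content in these windows, with every CG dinucleotide in capitals. They belong to Dpy30, the gene with the highest TPM of the 37 (outer start chr17:74323945-74324194, inner start chr17:74316434-74316683), to Kdm1a, the demethylase with the highest TPM (chr4:136602724-136602973), and to Kdm7a, the only member called between the libraries (chr6:39206774-39207023).
Dpy30 outer start: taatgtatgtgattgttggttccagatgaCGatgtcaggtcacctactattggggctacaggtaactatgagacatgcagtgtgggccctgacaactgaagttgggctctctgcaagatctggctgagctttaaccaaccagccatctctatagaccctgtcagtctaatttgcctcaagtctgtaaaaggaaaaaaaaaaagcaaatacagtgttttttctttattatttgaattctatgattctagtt
Dpy30 inner start: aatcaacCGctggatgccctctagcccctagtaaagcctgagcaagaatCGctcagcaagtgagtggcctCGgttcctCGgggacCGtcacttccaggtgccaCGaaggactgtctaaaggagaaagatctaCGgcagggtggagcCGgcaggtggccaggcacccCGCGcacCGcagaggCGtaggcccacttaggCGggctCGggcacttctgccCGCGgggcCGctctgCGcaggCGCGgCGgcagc
Kdm1a: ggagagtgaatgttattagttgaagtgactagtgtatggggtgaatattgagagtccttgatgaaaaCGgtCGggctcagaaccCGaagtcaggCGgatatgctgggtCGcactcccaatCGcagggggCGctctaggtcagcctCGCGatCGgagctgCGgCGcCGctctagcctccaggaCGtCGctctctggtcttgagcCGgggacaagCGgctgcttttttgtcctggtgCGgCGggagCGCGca
Kdm7a: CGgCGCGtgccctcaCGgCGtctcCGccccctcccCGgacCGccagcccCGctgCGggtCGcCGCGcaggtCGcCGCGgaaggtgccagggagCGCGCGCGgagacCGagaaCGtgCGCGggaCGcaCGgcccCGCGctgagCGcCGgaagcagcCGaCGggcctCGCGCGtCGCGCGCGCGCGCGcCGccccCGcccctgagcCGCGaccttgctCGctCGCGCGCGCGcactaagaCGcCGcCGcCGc
The outer Dpy30 stretch held 1 CG and the inner one 21, Kdm1a held 21, and Kdm7a held 56. Further inner windows of Dpy30, not printed, held 34 and 39 CG in 300 bases, against 30 in the window of the inner stretch printed. Counts of reads per gene do not show which Dpy30 start was used.

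The Dpy30 outer window was an exception among the start regions. CG dinucleotides were frequent, with an observed-to-expected ratio over 0.6, in 30 of 34 windows (88.2%), and each of the 24 genes had at least 1 such window. By window, the ratio was passed in 68.6% of 12898 windows of genes at 1 CPM or more in both libraries and in 46.0% of 22982 windows of all genes. It was passed in 15.7% of 7317 windows of protein-coding genes that did not reach 1 CPM in both. By gene, at least 1 such window was found for 76.4% of 10087 genes at 1 CPM in both. The shares by gene were 49.2% of 18852 genes in all and 16.3% of 6479 protein-coding genes that did not reach 1 CPM in both. The median was 28.5 CG per window for the members, 20 for genes at 1 CPM and 4 for protein-coding genes that did not reach it. The 4 windows below the ratio were the Dpy30 outer start, and 1 further annotated start each of Kdm4c, Kdm3a and Setd8, genes that each also had a CG-rich window. Kdm7a had the most CG of the members' windows, 65 in 300 bases, where the highest count over all genes was 67.

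**Figure D1:**
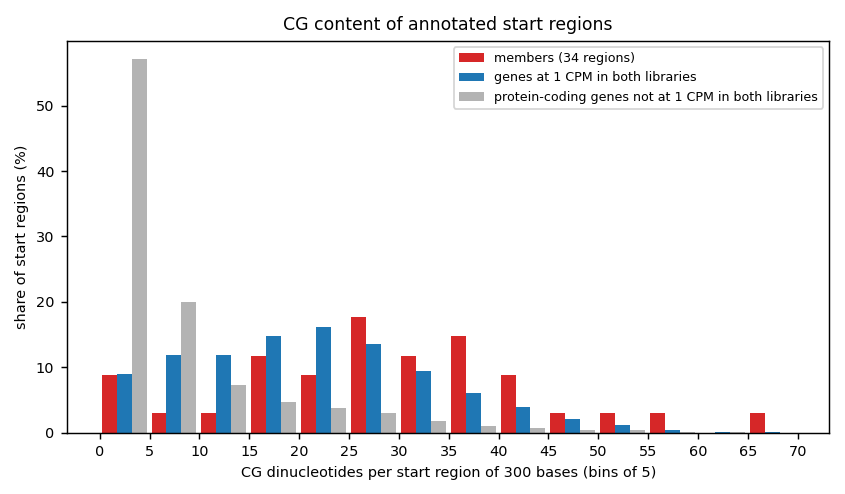
Share of start regions (vertical axis, percent) by the number of CG dinucleotides in 300 bases (horizontal axis, bins of 5), for 34 windows of the members, for genes at 1 CPM or more in both libraries, and for protein-coding genes that did not reach 1 CPM in both. The members' windows centre on a median of 28.5 CG, and most windows of the last set lie below 10.

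Short motifs were also counted in these windows, on both strands. The TATA-box letters TATAAA were in 0 of the 34 windows, against 6.79% of windows of genes at 1 CPM and 12.0% of all windows. If the windows were independent, 0 of 34 would allow a share of up to 8.82%. They come from 24 genes and some overlap, so the limit is higher and no contrast with either share is drawn. The GC-box letters GGGCGG were in 24 windows (70.6%), against 63.1% and 44.8%. The letters CCGGAAG, an ETS-type sequence, were in 3 windows (8.82%), against 17.1% and 11.1%, and the E-box CACGTG was in 3 (8.82%), against 9.99% and 7.81%. GGGCGG shares letters with CG-rich sequence, and a match is a description of the window, not a bound site.

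All 37 genes reached 1 CPM in both libraries, and the lowest count was 755 reads, of Kmt2e in A. Their median level was 27.9 ± 1.87 TPM, against 17.1 TPM for the 13886 genes at 1 CPM or more in both libraries, and 23 of the 37 lay above that value. By TPM 21 of the 37 were above the upper quartile of the 24550 genes with a read, 21.5 TPM, and by CPM, which is not corrected for length, 31 were. Members were long genes: the median exon length was 8969 bases, against 4482 for protein-coding genes at 1 CPM in both libraries. The levels spanned from 5.73 ± 0.272 TPM (Ash1l) to 355 ± 6.0 TPM (Dpy30).

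**Figure D2:**
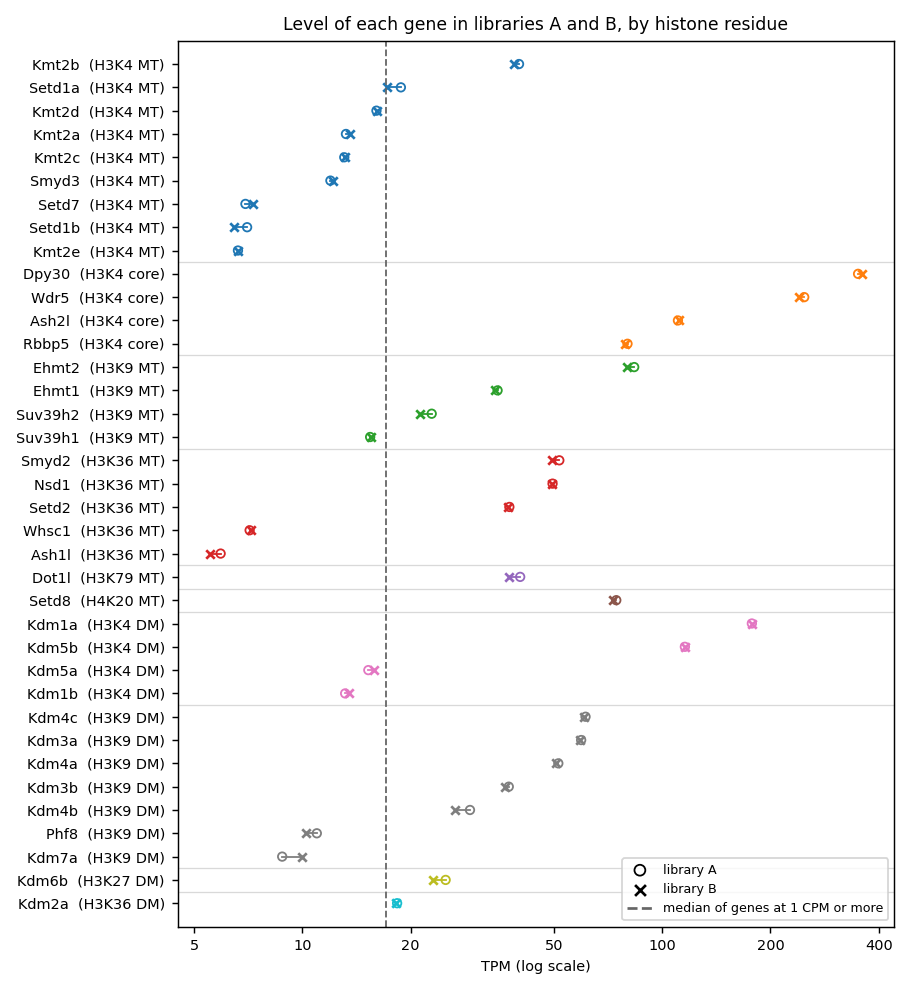
TPM (log scale) of the 37 genes in library A (circles) and library B (crosses), grouped and coloured by histone residue, with MT for methyltransferase and DM for demethylase; the dashed line is the median of genes at 1 CPM or more in both libraries, 17.1 TPM. The 4 core subunits of the H3K4 complexes all lie at 79.6 TPM or above on average, while 7 of the 9 H3K4 methyltransferases lie left of the line.

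The 4 core subunits, shared by all complexes of the Kmt2 and Setd1 family, stood above the enzymes they assemble with by TPM. Dpy30 (chr17:74299474-74323944 on GRCm38, minus strand), which dimerises and binds Ash2l, had 351 TPM in A and 359 in B. Wdr5, the WD-repeat subunit that holds the SET enzyme, had 248 and 241 TPM. Ash2l, which with Rbbp5 stimulates the SET domain, had 111 and 112 TPM. Rbbp5 had 80.1 and 79.1 TPM, the lowest of the 4 and still above every H3K4 methyltransferase in both libraries. Without length this did not hold, since by CPM Rbbp5 had 117, below Kmt2b at 142 and Kmt2d at 120. The sum over the core subunits was 790.1 ± 0.528 TPM and that over the 9 H3K4 methyltransferases 132 ± 1.70 TPM.

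Among the H3K4 methyltransferases the level of Kmt2b stood apart. Kmt2b, a menin-associated enzyme that trimethylates H3K4 at promoters, had 40.0 TPM in A and 38.8 in B. Its closest relative Kmt2a, the gene of the mixed lineage leukaemia translocations, had 13.2 and 13.5 TPM, so Kmt2b was 2.94-fold higher, with log2 ratios of -1.60 in A and -1.52 in B (Kmt2a over Kmt2b). The next gene after Kmt2b was Setd1a at 18.8 and 17.2 TPM. Setd1a and Setd1b are the catalytic subunits of the complexes that place most H3K4 trimethylation. Setd1b had 7.02 and 6.44 TPM, 2.68-fold below Setd1a on average.

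Kmt2c and Kmt2d, which monomethylate H3K4 at enhancers, were close to each other, Kmt2c at 13.1 TPM in both libraries and Kmt2d at 16.1 in both. Their order depended on the length used: the log2 ratio of Kmt2c over Kmt2d was -0.29 ± 0.005 by all exons and 0.14 by the longest transcript. Smyd3, a SET and MYND domain enzyme first described on H3K4, had 12.0 and 12.1 TPM. Setd7, which monomethylates H3K4 and many other proteins, had 6.94 and 7.29 TPM. Kmt2e, whose SET domain is thought to lack activity, had 6.62 and 6.63 TPM, and 9.31% of its exon bases overlapped Srpk2 on the other strand, a gene with 2809 and 3846 reads.

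Among the listed H3K9 methyltransferases the euchromatic Ehmt2 and Ehmt1 were higher than the heterochromatic Suv39h1 and Suv39h2. This order does not extend to Setdb1, an H3K9 methyltransferase outside the members. On average Setdb1 had 77.6 TPM, above Ehmt1 at 34.6 and below Ehmt2 at 81.6. By CPM Setdb1 was the highest of these at 199, against 105 for Ehmt1 and 168 for Ehmt2. Ehmt2 (G9a) and Ehmt1 (GLP) form the heterodimer that mono- and dimethylates H3K9. Ehmt2 had 83.6 TPM in A and 79.6 in B, and Ehmt1 34.9 and 34.3, a 2.36-fold difference that was the same by either length (log2 ratio of Ehmt1 over Ehmt2 -1.24). Suv39h1 and Suv39h2, which trimethylate H3K9 at pericentromeric repeats, had 15.4 and 15.5 TPM, and 22.9 and 21.2 TPM, in A and B. Suv39h2 was above Suv39h1 by all exons (log2 ratio of Suv39h1 over Suv39h2 -0.51 ± 0.079) and below it by the longest transcript (0.22). Of Suv39h1's exon bases, 14.6% overlapped the antisense gene Gm14820, which had 379 and 530 reads, and 8.10% of those of Suv39h2 overlapped Dclre1c, with 362 and 528.

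The H3K36 methyltransferases fell into a higher trio and a lower pair by TPM. The place of Smyd2 in the trio depended on length, since by CPM it had 51.6, against 45.1 for Whsc1 and 151 for Setd2. Smyd2, which methylates H3K36 and also p53, had 51.8 TPM in A and 49.5 in B. Nsd1, which mono- and dimethylates H3K36, had 49.6 and 49.5 TPM, and Setd2, the enzyme of H3K36 trimethylation over transcribed genes, had 37.6 and 37.3. Whsc1, a close relative of Nsd1, had 7.13 and 7.19 TPM, 6.92-fold below it; the log2 ratio of Nsd1 over Whsc1 was 2.79 by all exons and 2.13 by the longest transcript. Ash1l, which dimethylates H3K36, was the lowest of all 37 at 5.92 and 5.54 TPM, and 57.0% of the genes with a read were no higher. Smyd2 shared 29.96% of its exon bases with Gm37422 on the other strand, a gene with 5 and 12 reads.

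The remaining methyltransferase residues had 1 member each. Dot1l, the H3K79 enzyme without a SET domain, had 40.3 TPM in A and 37.6 in B. Setd8, which monomethylates H4K20 and is needed for mitosis, had 74.6 and 73.0 TPM. By all exons it was below Ehmt2, and by the longest transcript above it, at 116 TPM against 90.2 TPM for Ehmt2.

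Among the 4 listed H3K4 demethylases each family had a high and a low member. Kdm1a (LSD1; chr4:136550540-136602723 on GRCm38, minus strand), the flavin-dependent demethylase of the CoREST complex, had 178 TPM in both libraries, and its relative Kdm1b (LSD2) 13.1 and 13.5, a 13.3-fold difference and the widest of the 14 paralog pairs compared. Kdm5b, a JmjC demethylase of H3K4 trimethylation, had 116 and 115 TPM and the most reads of the 37 genes, 20923 and 30427. Kdm5a, of the same family, had 15.2 and 15.8 TPM, 7.45-fold less than Kdm5b. Kdm5c, a relative outside the members, lay between them at 56.4 TPM. By either length Kdm1a and Kdm5b stayed above their relatives, with log2 ratios by the longest transcript of 4.37 (Kdm1a over Kdm1b) and -3.45 (Kdm5a over Kdm5b). The summed level of the 4 was 322 ± 0.448 TPM, against the 132 TPM of the H3K4 methyltransferases. Kdm1b shared 9.19% of its exon bases with Dek on the other strand, which had 8934 and 13377 reads, many more than the 789 and 1179 of Kdm1b, so its value is uncertain.

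The 7 H3K9 demethylases were more even, with a median of 36.96 ± 0.713 TPM. Kdm4c had 61.2 and 60.5 TPM and Kdm4a 51.4 and 50.7; both act on trimethylated H3K9 and H3K36. Kdm4b, of the same family, was lower at 29.2 and 26.6 TPM. Kdm3a and Kdm3b remove mono- and dimethylation of H3K9. Kdm3a had 59.5 and 59.2 TPM and Kdm3b 37.5 and 36.5, but by CPM the order turned (log2 ratio of Kdm3a over Kdm3b 0.68 ± 0.022 by TPM and -0.093 by CPM). Phf8, an X-linked gene whose enzyme removes H3K9 dimethylation and H4K20 monomethylation, had 11.0 and 10.2 TPM. Kdm7a, from the Phf8 family and active on H3K9 and H3K27 dimethylation, had 8.78 and 9.96 TPM, so Phf8 was higher in A and the pair was nearly level in B, with log2 ratios of Kdm7a over Phf8 of -0.32 and -0.036.

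Kdm6b, which removes H3K27 trimethylation, had 25.01 TPM in A and 23.0 in B. Kdm2a, an H3K36 demethylase that binds CG-rich DNA through a zinc finger domain, had 18.3 and 18.2. The 13 demethylases had a median of 27.9 ± 1.87 TPM and a sum of 620 ± 4.69 TPM. For the 20 methyltransferases the median was 17.0 ± 0.544 TPM and the sum 549 ± 11.2 TPM. These totals cover the listed members only, and their order depends on that listing. The 19 genes listed below as other methyltransferases summed to 572 TPM in A and 569 in B. The 12 listed as other demethylases summed to 263 and 257 TPM.

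**Figure D3:**
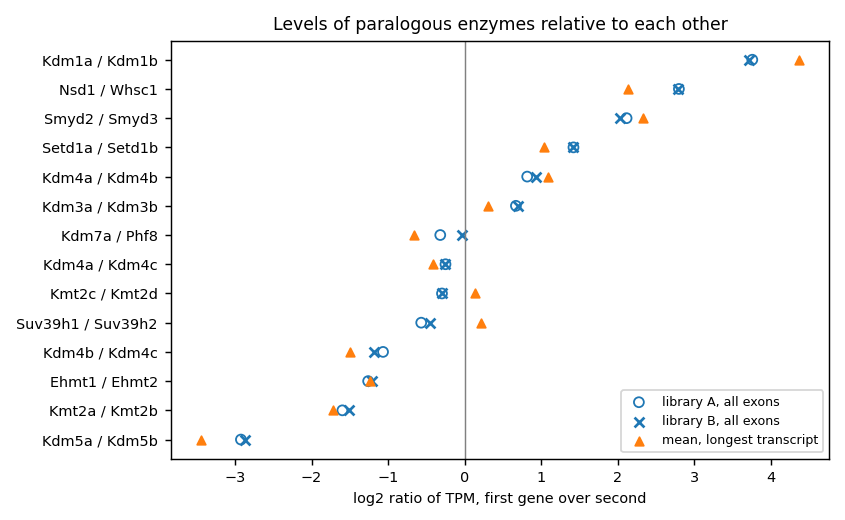
Log2 ratio of TPM of the first over the second gene of 14 paralog pairs, in library A (circles) and B (crosses) by the length of all exons, and on average by the longest transcript (triangles). Kdm1a over Kdm1b (3.74 on average) and Kdm5a over Kdm5b (-2.90) lie at the ends, and Kmt2c over Kmt2d and Suv39h1 over Suv39h2 change sign between the lengths.

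The order of the 37 levels was steady between the libraries, but many neighbours in it could not be separated. Of the 36 neighbouring pairs, 29 had the same order in A and B, and 15 had 95% counting intervals (exact Poisson) that were apart in both. The 7 pairs that swapped were Kdm4a with Smyd2, Kmt2b with Dot1l, Kdm2a with Setd1a, Kdm5a with Suv39h1, Whsc1 with Setd7, Setd7 with Setd1b, and Setd1b with Kmt2e. The lowest levels, from Whsc1 to Kmt2e, therefore have no fixed order. The choice of length moved some levels further than that: by the longest transcript in place of all exons 5 genes were over 1.5 times higher, namely Ash2l (218 TPM), Kdm3b (66.3), Whsc1 (12.5), Setd8 (116) and Kdm5b (178). The 5 highest genes were the same by both lengths. The longest annotated transcript of Ash2l is a single exon, so its length by either rule may not be that of the spliced mRNA.

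Of the 37 members 19 shared exon bases or a near-identical stretch (at least 95% identity over 100 bases) with another annotated gene. Exons of 16 overlapped another gene, and for 13 of these a partner had a row in the count tables. Beside the overlaps given above, the partner with the most reads was Dap3 (4569 and 6434, against 960 and 1308 of Ash1l), over 2.37% of Ash1l's exon bases. Ccdc77, with 1129 and 1677 reads, overlapped 1.77% of those of Kdm5a, and Nelfa, with 2299 and 3212, overlapped 0.357% of those of Whsc1. Kdm3b shared 24.6% with Gm26538, which had 1 and 2 reads, and Kdm6b shared 4.11% with Kdm6bos, which had 8 and 13. Kdm7a shared 2.85% with 4930599N23Rik, which had 3 and 5 reads, and it also held stretches of 95.1% to 95.5% identity with Zc3h12b (27 and 26 reads), Mapk12 (779 and 1109) and Tmem131l (1544 and 2212), each at most 1.49% of its transcript. Rbbp5 had a processed pseudogene, Gm11977, with 96.8% identity over 1344 bases, which held 19 and 29 reads against 3440 and 4946 of Rbbp5. The labels describe the library protocol as stranded, but how the authors counted reads by strand and reads matching several places is not stated in the labels or headers, so the values of members with such a partner are uncertain, and how much this moved them was not tested.

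The libraries were then compared for each gene by an exact binomial test, two-sided, of whether B held the share of reads that its scaled depth predicts. The p-values were adjusted (Benjamini-Hochberg) over the 18198 genes with at least 10 reads. This compares 2 libraries against counting error and has no replicate check. Of all genes tested, 417 (2.29%) were called at an adjusted p under 0.05, 237 higher in B and 180 higher in A. Of the 37 members 1 was called, higher in B. When a difference of at least 25% was also asked for, 45 genes (0.247%) passed and 0 members did, since the largest member difference was 1.15-fold. At an unadjusted p under 0.05 of the same binomial test there were 6 members (16.2%), against 12.4% of all genes tested.

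That gene was Kdm7a (ENSMUSG00000042599, minus strand of chr6:39136623-39206789 on GRCm38). A gave 965 reads (8.78 TPM) and B 1595 reads (9.96 TPM), and the log2 ratio of B over A was 0.20 ± 0.0588 (SE from counting; 95% interval 0.084 to 0.315; adjusted p = 0.0358 by the exact binomial test). Its transcript had the lowest GC content of the 37, 39.6%. With the trend of all genes with GC content removed the log2 ratio was 0.15 and the adjusted p of the binomial test was 0.285, so the call was lost. Over 5 other scalings and filters the adjusted p of the binomial test ran from 0.0238 to 0.0488, while the exact test of edgeR, told that replicates vary by a coefficient of variation of 0.1, gave an adjusted p of 1.

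The 5 others under an unadjusted p of 0.05 were all lower in B and had GC contents from 57.0% to 60.8%. Kdm4b had 1563 reads in A and 2071 in B (log2 ratio -0.12, adjusted p = 0.219 by the exact binomial test). Dot1l had 3833 and 5213 reads (-0.081, binomial adjusted p = 0.161). Kdm6b had 1900 and 2546 reads (-0.10), Setd1a 1394 and 1864 (-0.11) and Ehmt2 5015 and 6958 (-0.053). None of the 5 passed the adjusted threshold.

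The differences followed base composition across the members. Over the 37 genes the correlation between transcript GC content, which ran from 39.6% to 60.8%, and the log2 ratio of B over A was -0.63 (Pearson) and -0.60 (Spearman), given as a description since all points share the same 2 libraries. Over all genes the median also fell with GC content, from a log2 ratio of 0.046 in the bin at 38.2% GC to -0.083 in the bin at 61.0%. After removal of that trend Pearson's r over the members was -0.14. The median log2 ratio was 0.0049 over the members, with 19 of 37 higher in B, and -0.00084 over all genes tested. The sign and the majority depended on the setting. By total counts the members' median was -0.0024 with 17 of 37 higher in B, and with the GC trend removed it was -0.0035 with 18. Both held by DESeq2 size factors (0.0084, with 22 higher in B) and with TMM factors from all genes (0.011, with 22). The median absolute log2 ratio was 0.030 over the members and 0.040 over tested genes in the members' range of CPM. These sets were not matched in level, with medians of 99.6 CPM for the members and 68.2 CPM for those genes, so no contrast is drawn.

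**Figure D4:**
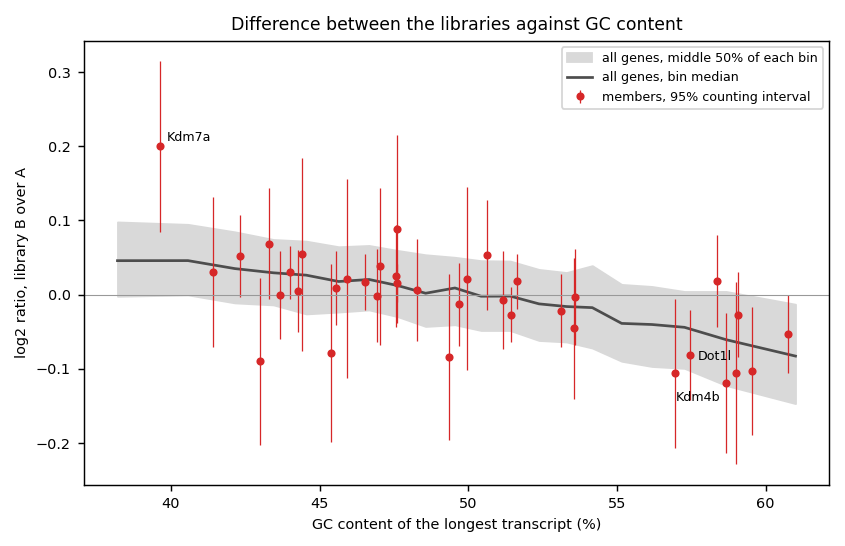
Log2 ratio of library B over A (vertical axis) against the GC content of the longest transcript (horizontal axis, percent) for the 37 members (points with 95% counting intervals), with the median (line) and middle 50% (band) of all genes in 20 bins of GC content. Kdm7a stands at the low-GC end above the band at 0.20, and the members over 55% GC mostly lie below 0.

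Other genes of these enzyme families, and partners of the same marks, were also present, by lists chosen from textbook membership. The enzyme lists include family members whose activity on histone lysines is not established, so their medians are not of histone lysine enzymes only. Of 19 other methyltransferases 18 reached 1 CPM in both libraries; the median was 19.1 TPM and the highest were Setd6 (81.0 ± 0.748), Setdb1 (77.6 ± 0.416), which trimethylates H3K9 at retroelements, and Ezh2 (77.6 ± 1.54), the catalytic subunit of Polycomb complex PRC2. Mecom had 18 reads in A and 20 in B. Setd5 was called higher in B (log2 ratio 0.065, adjusted p = 0.0484 by the binomial test). Of 12 genes listed as other demethylases 10 reached 1 CPM, with a median of 21.4 TPM, and 0 were called by the binomial test. The highest were the X-linked H3K4 demethylase Kdm5c (56.4 ± 0.710 TPM), Hspbap1 (38.0 ± 0.926) and Jmjd6 (33.97 ± 1.20). Kdm4d, the testis-enriched relative of Kdm4a, had 3 reads in each library, and the Y-linked Kdm5d had 2 and 5.

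All 12 genes listed as partners of the H3K4 complexes reached 1 CPM, with a median of 36.5 TPM. The list was broad and also held Bptf and Bod1, so the median is not of complex subunits only. They were led by Psip1 (208 ± 5.73 TPM), a chromatin reader that binds the menin complexes, Hcfc1 (130 ± 3.33) and Wdr82 (118 ± 1.14), a subunit of the Setd1 complexes. Psip1 was called higher in B by the binomial test (log2 ratio 0.074, adjusted p = 0.00244). All 9 partners of H3K9 methylation reached 1 CPM (median 42.1 TPM). Trim28, the corepressor that recruits Setdb1, had 1263 ± 44.9 TPM, and the heterochromatin proteins Cbx5 and Cbx1 had 225 ± 1.64 and 181 ± 6.06. Trim28 was called higher in A (log2 ratio -0.055, adjusted p = 1.41e-09) and Cbx1 higher in B (0.086, adjusted p = 0.00269), both by the binomial test and each by less than 1.1-fold.

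All 10 genes of the CoREST list, the partners of Kdm1a, passed 1 CPM in A and in B; their median was 29.0 TPM, and none was called. Rcor2, the CoREST scaffold prominent in ES cells, had 171 ± 4.95 TPM, close to the 178 ± 0.0230 of Kdm1a. That closeness depended on the length used, since by CPM Rcor2 had 202 and Kdm1a 345. The deacetylases Hdac2 and Hdac1 had 105 ± 1.29 and 49.98 ± 1.73 TPM. All 7 genes listed as Dot1l partners reached 1 CPM, with a median of 36.8 TPM beside 39.0 ± 1.90 for Dot1l, and none was called. They were led by Mllt6 (61.5 ± 2.64 TPM), Aff4 (54.6 ± 0.724) and Aff1 (38.2 ± 0.258). The list also held Eny2 (29.8 ± 0.477 TPM), which is not an established Dot1l partner. Values per gene are from a bulk culture, in which fewer cells with a transcript and less of it in each cell cannot be told apart.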

How the data were processed

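Poly-A RNA of 2 libraries of Drosha knockout mouse ES cells was measured with the Illumina TruSeq kit, per the labels' protocols. The values are whole-number counts of reads for each Ensembl gene that the authors deposited, with a table for each library, per the file headers; 42548 of 43629 gene IDs matched GENCODE M21 on GRCm38. Per the submitters' processing notes, the tools were STAR 2.4.2a and featureCounts 1.4.5-p1 and the build was mm10, with no roles stated. Annotation release and counting settings: not given in the sources used here.

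Counts were scaled by TMM factors from genes with at least 10 reads (edgeR 4.0.16, R 4.3.3). CPM, and TPM from the summed exon length of each gene, were computed per library. The comparison of B with A was a two-sided exact binomial test with Benjamini-Hochberg adjustment at 0.05; log2 ratios had 0.5 reads added. Counts give exact Poisson intervals, and PCR duplicates make these intervals cover counting error only. The libraries differed by a coefficient of variation of 2.25% beyond counting, as edgeR estimates it. The trend with GC content was removed as the median of 20 bins of genes with at least 100 reads. Near-identical copies were sought with blastn 2.17.0 (at least 95% identity over 100 bases); other work used scipy 1.17.1, numpy 2.4.6, matplotlib 3.10.9 and pandas 2.3.3 in Python 3.11.15. The test was tested on simulated data.

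The members and lists were chosen with earlier results of these data known. All 37 members are named; of each other list, the 3 genes with the highest TPM, those under 1 CPM and those called. Alternatives were scaling by DESeq2 1.42.0 size factors or by total counts, filters of 1 and 50 reads, GC removal, edgeR's exact test with a coefficient of variation set by hand, CPM, the longest transcript as length, and each library alone. TMM factors from all genes were added after seeing the data.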

Additional observations from a re-analysis of the deposited data

How the results depend on the processing

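The count of calls held within 1.5 times under every alternative scaling and filter of reads, and 1 member, Kdm7a, was called in each. With the GC trend removed 144 genes and 0 members were called (3 members at an unadjusted p under 0.05), and with edgeR's exact test at an assumed coefficient of variation of 0.1 it was 1 gene and 0 members (0 unadjusted). Scaling moved the split of calls: 237 higher in B and 180 in A became 180 and 242 by total counts, 311 and 152 with TMM factors from all genes, and 107 and 37 after GC removal.

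Levels followed the length used. By the longest transcript the median TPM was 24.9 for the 37 genes, 13.0 for H3K4, 29.7 for H3K9 and 39.1 for H3K36 methyltransferases, 232 for the H3K4 core, and 97.1 and 51.3 for H3K4 and H3K9 demethylases; without length these were, in CPM, 99.6, 45.8, 70.8, 51.6, 241, 213.5 and 110.7. Setd8 passed Ehmt2 by the longest transcript (116 and 90.2 TPM). Signs reversed for Kmt2c over Kmt2d (0.14) and Suv39h1 over Suv39h2 (0.22) by the longest transcript, and for Kdm3a over Kdm3b (-0.093) by CPM. For these reversals the cause was not tested beyond the length itself. Of the members 20 without A and 21 without B lay above the upper quartile of genes with a read. Leaving out 1 of 2 libraries says nothing about stability, since a mean of 2 values always moves by less than their SD, and no comparison of A with B could then be made. No paired analysis was possible because there was 1 group. Depth limits the order of neighbouring genes: 21 of 36 pairs had overlapping counting intervals in at least 1 library.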

Other observations

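Of the demethylases with copies on both sex chromosomes, the X-linked Kdm6a, which removes H3K27 trimethylation, had 24.9 TPM in A and 26.6 in B, and its Y-linked relative Uty 8.39 and 9.19 TPM. The other such pair differed more, with X-linked Kdm5c at 57.0 and 55.9 TPM and Y-linked Kdm5d at 0.0121 and 0.0207 TPM (2 and 5 reads). Kdm6a and Uty were picked after their values were seen. Of Setd1a's exon bases 51.8% lie also in Gm49388, an M21 gene on the same strand with no row among the counts used here.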
